A study of Mus musculus with 9 samples.

Results

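The receptors of the ErbB family and their main ligands were followed in pancreatic ductal adenocarcinoma (PDAC) cells that had kept or lost Yap, a transcriptional co-activator of the Hippo pathway. The 10 genes were taken by name from the 47643 genes counted: the receptors Egfr, Erbb2, Erbb3 and Erbb4, and the ligands Areg, Ereg, Hbegf, Tgfa, Btc and Nrg1. All 10 were found, and 9 had at least 100 counts over the 9 libraries and were tested, Erbb4 being the exception. Both groups of mice carried Trp53 frt/+, Pdx-Flp and R26 FSF-CreER/Dual, so that a Flp recombinase driven by a Pdx1 promoter removed 1 copy of Trp53 and enabled CreER and a dual colour reporter in the pancreas. KPYYF mice also carried Yap flox/flox. Tamoxifen (TAM) in the diet, started once tumors could be felt, activated CreER, which could delete Yap in KPYYF mice alone, and both groups were treated with TAM. The KPF group was 6 libraries of GFP+Yap+ cells and the KPYYF group 3 libraries of Tm+Yap- cells, each sorted by reporter colour from a primary tumor. Tm+Yap- cells came from nodules that had regrown after Yap deletion, so genotype, Yap status and reporter colour changed together and cannot be told apart. KPF libraries 4504h and 4504s share the digits of their mouse number, mice of both sexes were used, and the sources used here give no ages for single mice. The other libraries carry different mouse numbers, and whether they were prepared separately is not stated. The tests took each of the 9 libraries as a replicate, 4504h and 4504s included. Their p values thus rest on the spread between these libraries.

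ErbB receptors are tyrosine kinases of the cell surface that pair up when a ligand binds and signal through Ras and ERK and through PI3 kinase. EGFR binds Tgfa and Areg, both EGFR and ErbB4 bind Ereg, Hbegf and Btc, and Nrg1 binds ErbB3 and ErbB4. ErbB2 has no known ligand of its own, and ErbB3 has a weak kinase and signals through its partner. The ligands are made as membrane precursors and are cut free by ADAM proteases, and EGFR signalling is known for its part in the start of pancreatic tumors.

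The ligands share a short EGF-like domain, the part that binds the receptor, held by 6 cysteines. Its coding sequence is shown for the 5 ligands whose domain was located, since it is what makes genes with different responses a family. It was found once in the coding sequence of 1 annotated transcript of each gene, from the first to the last cysteine codon. The strand is the coding strand, 5′ to 3′, and capitals mark the 6 cysteine codons.
Tgfa: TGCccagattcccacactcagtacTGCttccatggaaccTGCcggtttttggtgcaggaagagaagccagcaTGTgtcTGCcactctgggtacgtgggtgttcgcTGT
Areg: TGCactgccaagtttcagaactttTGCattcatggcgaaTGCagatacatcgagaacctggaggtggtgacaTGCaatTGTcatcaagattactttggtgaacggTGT
Ereg: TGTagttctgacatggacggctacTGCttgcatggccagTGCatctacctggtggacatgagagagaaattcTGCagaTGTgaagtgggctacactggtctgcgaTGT
Btc: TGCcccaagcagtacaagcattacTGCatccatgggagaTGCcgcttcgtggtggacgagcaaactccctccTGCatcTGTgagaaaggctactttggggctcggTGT
Nrg1: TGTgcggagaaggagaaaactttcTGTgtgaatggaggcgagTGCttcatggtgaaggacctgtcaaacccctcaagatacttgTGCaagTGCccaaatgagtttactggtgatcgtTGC
In Tgfa, Areg, Ereg and Btc the stretch was 36 codons long, with 7, 4, 10, 1 and 8 codons between successive cysteines. In Nrg1 it was 40 codons long, with gaps of 7, 5, 13, 1 and 8. The intron lay at the same place in all 5 genes, leaving the last 31 bases, with the fifth and sixth cysteines, in the next exon. In GRCm38, the build called mm10 by the submitters, the first coding block was chr6:86263200-86263276 (+) in Tgfa, chr5:91143614-91143690 (+) in Areg, chr5:91088496-91088572 (+) in Ereg, chr5:91366121-91366197 (-) in Btc and chr8:31849310-31849398 (-) in Nrg1. This block was in exon 3 of the first 4 genes and in exon 2 of Nrg1. Ereg, Areg and Btc, with Epgn, another EGFR ligand, made up a ligand cluster on chromosome 5 with no other protein-coding gene between them.

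Libraries held 8116539 to 9635514 counts on genes, which puts 3 counts, the limit used here for a gene not seen, at 0.291 to 0.436 CPM, a count scaled to a common library size. Reads carried no molecular identifiers, so this limit covers counting error only. The deleted gene followed the labels, with Yap1 at 41.7 to 151 CPM in KPF and 0.711 to 7.11 CPM in KPYYF libraries. Epithelial markers were detected in every library, 9 of 9 of them had a log2 fold change below 0 and their summed level was 3230 to 11330 CPM in KPF against 562 to 1889 CPM in KPYYF libraries. Immune markers summed to 427 to 9188 CPM in KPF, the top being library 4601, and to 371 to 735 CPM in KPYYF libraries. Acinar markers reached 9673 CPM in KPF 4504s and 4860 CPM in KPYYF 4449, and 49.4 and 53.8 CPM in the lowest library of each group. Fibroblast markers overlapped in sum, at 222 to 2746 and 403 to 1763 CPM. Single genes of that list went both ways, with 5 above and 3 below 0, from Fap at -1.62 to Pdgfra at 2.90 on the log2 scale. Endothelial markers were at 10.9 to 57.2 and 12.6 to 14.9 CPM. Islet markers were at 2.45 to 65.2 and 2.62 to 11.1 CPM. Of the Schwann cell list, Sox10, Foxd3, Cdh19 and Gfra3 had no count in any library, and the rest of it, mostly Mbp and S100b, summed to 86.5 to 253 CPM in KPF and 10.3 to 18.01 CPM in KPYYF libraries. Xist, expressed from the inactive X of female cells, had 71 to 159 counts in KPF libraries 4269, 4515 and 4601 and 3452 to 16108 counts in the other 3 KPF and all 3 KPYYF libraries, so the KPYYF group had no Xist-low library.

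Across the family, Tgfa fell, and Erbb3 and Hbegf were lower and Ereg higher in KPYYF libraries without passing the adjusted threshold. In the quasi-likelihood test of edgeR, adjusted for the 14105 genes in the fit by the Benjamini-Hochberg method, 1 of the 9 members tested, Tgfa, was lower at an adjusted p under 0.05, as were 0.794% of all genes. None was higher, while 0.305% of all genes were. At an unadjusted p under 0.05 in either direction there were 4 members, beside 16.1% of all genes. DESeq2 called 2 members lower (Erbb3 and Tgfa) beside 6.75% of the 13748 genes to which it gave an adjusted p, and 1 higher (Ereg) beside 1.96%. By the rule of the study's methods, an unadjusted p under 0.05 and more than a 2-fold change, 3 members were lower (Erbb3, Hbegf and Tgfa) against 9.20% of all genes, and 1 was higher (Ereg) against 4.20%. The groups did not overlap for Erbb3 and Tgfa, which were lower, against 5.16% of all genes, and for Ereg, which was higher, against 3.93%. The median log2 fold change of the 9 members was -0.19, beside -0.07 over all genes tested, and 6 of them were below 0.

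**Figure D1:**
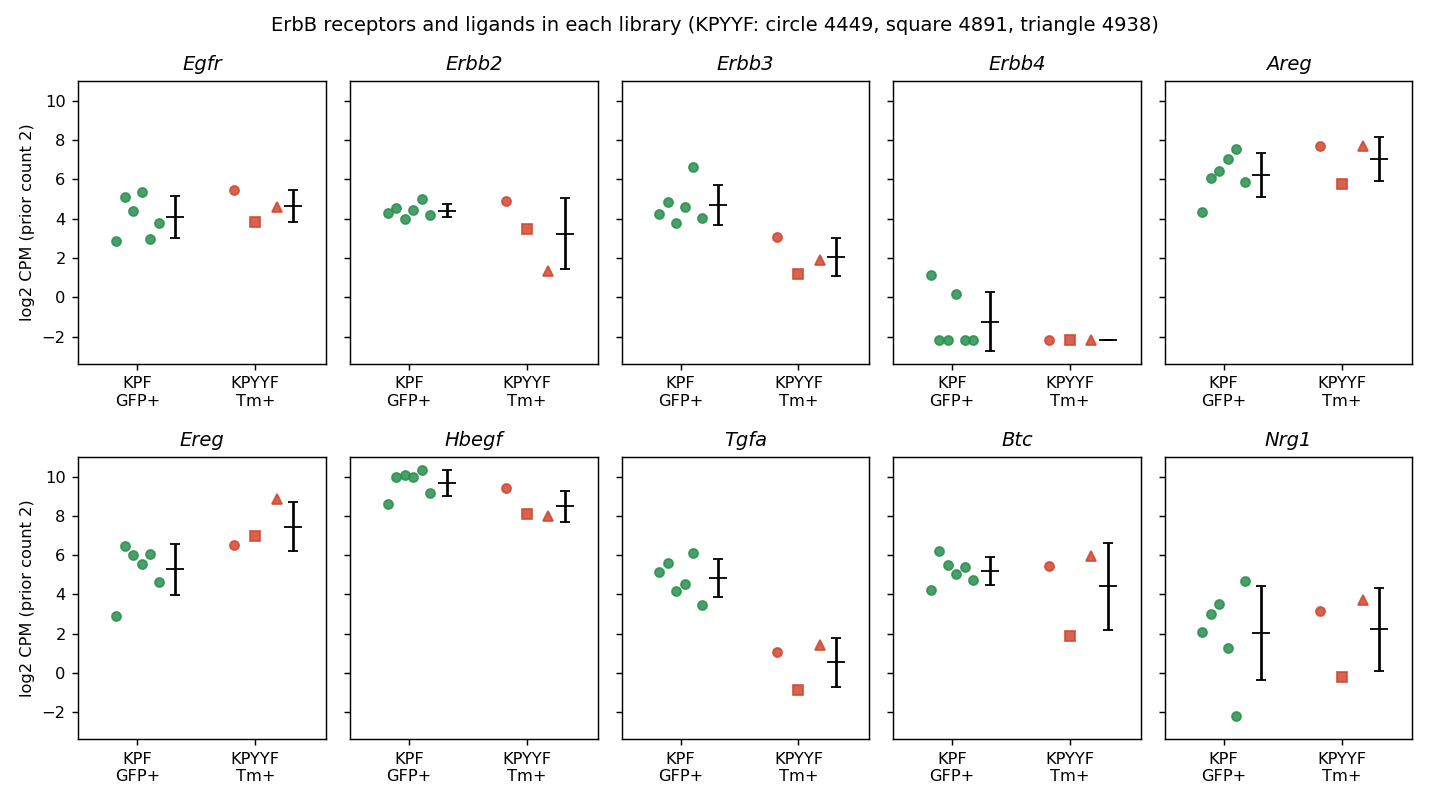
Level of each receptor and ligand in every library, as log2 CPM with a prior count of 2 on the vertical axis, for 6 KPF and 3 KPYYF libraries. Points are libraries, and black bars give the mean and SD of each group. Tgfa and Erbb3 lie lower and Ereg higher in all 3 KPYYF libraries than in any KPF library, and Erbb4 is at 0 counts in 7 of 9 libraries.

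Of the receptors, Erbb3 differed most between the groups. Its gene lies at chr10:128567523-128589652 (-) and its level in KPF libraries ran from 13.5 CPM (4504h) through a median of 21.7 to 98.8 CPM (4515). In KPYYF libraries it was 8.18 (4449), 2.07 (4891) and 3.50 CPM (4938). All 3 were below every KPF library, and 4515 stood above the other 5 KPF libraries. The means were 33.4 ± 32.5 CPM (SD, n = 6) and 4.58 ± 3.19 CPM (SD, n = 3). The log2 fold change was -2.86 (standard error 0.78), a 7.28-fold lower level, with an unadjusted p that ranked 392 of 14105 and an adjusted p of 0.0985 in edgeR's quasi-likelihood test. An exact permutation test on log2 CPM, two-sided, gave p = 0.0119, the smallest that 84 arrangements allow, unadjusted, as for every exact test given here. In bulk libraries, fewer cells of a type and less RNA per cell cannot be told apart. The summed epithelial markers were lower in KPYYF libraries too, with groups that did not overlap, and their part in the level of Erbb3 was not tested. Without KPF 4515 the log2 fold change was -2.13, with an adjusted p of 0.163. Among Xist-high libraries, KPF ranged from 13.5 to 28.6 CPM, above the KPYYF libraries. The adjusted p of Erbb3 was 0.00226 with DESeq2 and 0.0346 without a filter on low counts, and over all 19 alternatives it ran from 0.00226 to 0.299.

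Egfr (chr11:16752203-16918158, +), the receptor of most of these ligands, was at 6.99 CPM (4269) to 40.3 CPM (4504s) in KPF libraries, with a median of 17.2 CPM. The KPYYF libraries were at 43.3 (4449), 13.9 (4891) and 24.4 CPM (4938). The groups overlapped over most of their range. The log2 fold change was 0.40 (standard error 0.61), with an adjusted p of 0.817 in edgeR's test, and the exact permutation test gave p = 0.405. The sign was not stable, since a term for Xist class gave -0.23 and leaving out KPYYF 4449 gave -0.11. Within KPF, Egfr was 6.99 to 13.7 CPM in the 3 Xist-low and 20.7 to 40.3 CPM in the 3 Xist-high libraries. Of the 9 members tested, 1 had Xist classes that did not overlap within KPF, and 10.1% of all genes tested did, so this split is not particular to Egfr.

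Erbb2 (chr11:98412470-98437716, +), the preferred partner of the other receptors, had the smallest ratio of highest to lowest level among the 3 tested receptors in KPF libraries, 15.8 to 32.1 CPM with a median of 20.5 CPM. KPYYF libraries were spread over a wider range, with 29.9 (4449), 11.0 (4891) and 2.30 CPM (4938). Library 4449 lay within the KPF range and the others below it. The fitted change was -0.60 on the log2 scale (standard error 0.63, with an adjusted p of 0.713 in edgeR's test), and the exact permutation test gave p = 0.107. The value rested on single libraries, and was -0.09 without 4938 and -1.71 without 4449, with adjusted p of 0.964 and 0.214. Erbb2 shares 9 exon bases with Mien1, which is on the opposite strand.

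Erbb4 (chr1:68032186-69108059, -) was hardly detected. It had 20 counts in KPF 4269, 8 counts in KPF 4504s and no count in the other 4 KPF and the 3 KPYYF libraries. It was below the filter on counts, and no fold change is given.

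Tgfa (chr6:86195223-86275719, +), a ligand of EGFR long known from transformed cells, was the member that fell past the adjusted threshold. In KPF libraries it was 10.9 CPM (4601) to 68.8 CPM (4515), with a median of 29.1 CPM. In KPYYF libraries it was 1.90 (4449), 0.327 (4891) and 2.52 CPM (4938), from 16, 3 and 23 counts. The ranges of the groups did not touch, and 4891 was at the limit of 3 counts. The means were 33.9 ± 21.5 CPM (SD, n = 6) and 1.58 ± 1.13 CPM (SD, n = 3). Tgfa fell by 4.42 on the log2 scale (standard error 0.82), or 21.3-fold, with an adjusted p of 0.0277 in edgeR's test and rank 60 of 14105 genes by p. The exact permutation test gave p = 0.0119, again the smallest possible. The call did not hold in every fit. Leaving out each library in turn gave log2 fold changes of -4.92 to -3.93 and adjusted p of 0.0178 to 0.0744, under 0.05 in 4 of 9 fits and above it without KPF 4435, 4504s or 4515 or KPYYF 4891 or 4938. A term for Xist class gave an adjusted p of 0.0806, and the 3 KPF and 3 KPYYF Xist-high libraries alone, at 17.9 to 47.6 against 0.327 to 2.52 CPM, gave 0.104. Tgfa shares 118 exon bases with Gm43917 on the opposite strand, which had no count. As with Erbb3, the epithelial markers were lower in the same libraries and their part was not tested.

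**Figure D2:**
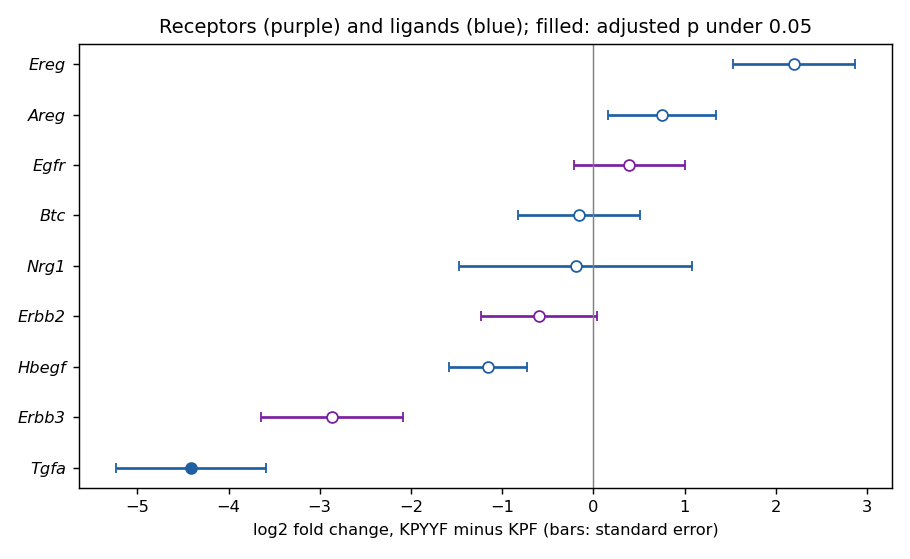
Log2 fold change of KPYYF minus KPF for the 9 members tested on the horizontal axis, with bars of 1 standard error from edgeR's quasi-likelihood fit. Receptors are purple and ligands blue. The filled point, Tgfa at -4.42, had an adjusted p under 0.05, and Ereg at 2.20 was the farthest on the higher side.

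Ereg (chr5:91074622-91093646, +), a ligand of low affinity that keeps receptors active for long, went the other way. In KPF libraries it was 7.38 CPM (4269) to 88.0 CPM (4435), with a median of 55.4 CPM. The KPYYF libraries had 92.4 (4449), 124 (4891) and 468 CPM (4938). All 3 were above every KPF library, but 4449 only just, and 4938 was far above the other two. The means were 49.5 ± 29.6 CPM (SD, n = 6) and 228 ± 209 CPM (SD, n = 3), and the log2 fold change was 2.20 (standard error 0.67), 4.60-fold, with an adjusted p of 0.141 in edgeR's test. The exact permutation test gave p = 0.0476, which was under 0.05 in 4 of its 12 alternatives. It was 0.0536 with 4504h and 4504s summed or without any 1 of KPF 4504h, 4504s, 4515 and 4601, and 0.0714 without KPYYF 4449 or 4891. Without 4938 the log2 fold change was 1.13 with an adjusted p of 0.465, and the exact permutation test gave p = 0.179. DESeq2 gave an adjusted p of 0.0119, and the 19 alternatives ran up to 0.465. Among Xist-high libraries, KPF was 47.0 to 88.0 CPM. Ereg shares 141 exon bases with the antisense gene Gm19610, which had 132 counts in all beside 8943 for Ereg.

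Areg (chr5:91139599-91148432, +), amphiregulin, the neighbour of Ereg and a ligand known as a target of Yap in epithelial cells, did not pass the test and had a log2 fold change above 0. In KPF libraries it was 20.3 CPM (4269) to 190 CPM (4515), with a median of 77.3 CPM. In KPYYF libraries it was 207 (4449), 54.1 (4891) and 209 CPM (4938). Both 4449 and 4938 were above every KPF library, and 4891 lay below the KPF median. The fit gave 0.76 on the log2 scale (standard error 0.59), with an adjusted p of 0.590 in edgeR's test, and the exact permutation test gave p = 0.345. Over the 19 alternatives it stayed between 0.47 and 1.17, and no adjusted p was under 0.05.

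Btc (chr5:91357261-91402994, -), betacellulin, first found in insulin-producing tumor cells, closes the cluster on chromosome 5. In KPF libraries it was 18.3 to 74.3 CPM, with a median of 37.6 CPM. KPYYF libraries stood at 42.9 (4449), 3.49 (4891) and 61.1 CPM (4938). Library 4891 was below every KPF library and the other two were within the KPF range. On the log2 scale the change was -0.16 (standard error 0.67), with an adjusted p of 0.946 in edgeR's test and an exact permutation p of 0.536, and without 4891 it was 0.38. The neighbours on chromosome 5 differed within 1 library, since in 4891 Ereg was above the whole KPF range, Areg within it and Btc below it.

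Hbegf was the member with the most counts, 59509 in all, and codes for a heparin-binding ligand. In KPF libraries it was 384 CPM (4269) to 1302 CPM (4515), with a median of 1014 CPM. In KPYYF libraries it was 675 (4449), 273 (4891) and 254 CPM (4938). Libraries 4891 and 4938 were below every KPF library, and 4449 was within the KPF range. The means were 892 ± 344 CPM (SD, n = 6) and 401 ± 238 CPM (SD, n = 3), and the log2 fold change was -1.15 (standard error 0.43), 2.23-fold lower, with an adjusted p of 0.202 in edgeR's test. The exact permutation test gave p = 0.0714. Among Xist-high libraries, KPF was 1013 to 1067 CPM, above all 3 KPYYF libraries. Without 4449 the log2 fold change was -1.76 (adjusted p = 0.0765), and no alternative gave an adjusted p under 0.05. Without 4891 or 4938 Hbegf, at -0.94 and -0.91, no longer met the rule of the study's methods.

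Nrg1 (chr8:31814551-32884029, -), neuregulin 1, the ligand of ErbB3 and ErbB4, was low and uneven. In KPF libraries it ranged from 0 counts (4515) to 25.7 CPM (4601), with a median of 5.92 CPM. The level in KPYYF libraries was 8.77 (4449), 0.654 (4891) and 12.8 CPM (4938). Both groups held near-absent and clearly positive libraries. In the fit the change was -0.19 on the log2 scale (standard error 1.28), with an adjusted p of 0.968 in edgeR's test and an exact permutation p of 0.905, and its sign changed with the choice of libraries. Nrg1 shares 482 exon bases with Gm26578 on the opposite strand, which had 39 counts in all. KPF 4515, without a count of Nrg1, had the highest Erbb3, and KPF 4601, with the most Nrg1, had the highest immune marker sum. The libraries next in line went otherwise. KPF 4435, next in Erbb3, had 7.87 CPM of Nrg1, and KPF 4504s, next in immune markers at 1458 CPM, had 2.16 CPM. Neither relation was tested.

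Levels of members within a library were also set against each other, with ratios chosen after the values were seen and given as a description. Ratios are compared between groups and not between genes. The log2 ratio of Erbb3 to Egfr was -0.72 to 3.66 in KPF and -2.73 to -2.37 in KPYYF libraries. The KPYYF libraries thus lay close together and below the KPF range. The log2 ratio of Tgfa to Areg was -2.52 to 0.79 in KPF and -6.63 to -6.26 in KPYYF libraries, again without overlap. For Hbegf to Areg it was 2.77 to 4.23 and 0.28 to 2.33, so that Areg made up more of the ligand counts relative to Hbegf in every KPYYF library. For Erbb3 to Erbb2 the groups overlapped, at -0.23 to 1.61 and -2.29 to 0.56, with KPYYF 4938 within the KPF range. For Erbb2 to Egfr, at -0.92 to 2.04 and -3.29 to -0.32, and for Ereg to Areg, at -1.51 to 0.38 and -1.16 to 1.19, the groups overlapped.

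**Figure D3:**
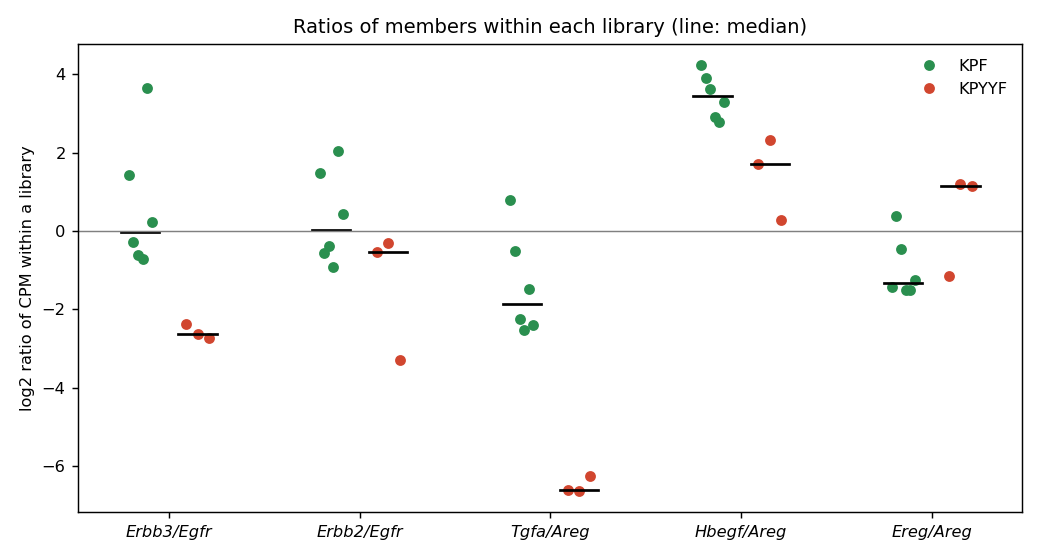
Log2 ratio of the CPM of one member to that of another within each library, on the vertical axis, for 6 KPF (green) and 3 KPYYF (red) libraries, with a line at each group's median. The Tgfa to Areg ratios of the KPYYF libraries lie between -6.63 and -6.26, below all KPF libraries, while the Ereg to Areg ratios of the groups overlap.

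The libraries 4504h and 4504s give a view of the spread within a mouse number. Among the members tested, log2 CPM differed between these libraries by 0.08 (Hbegf, lower in 4504s) to 2.25 (Nrg1, lower in 4504s). The difference was 0.95 for Egfr and 0.85 for Erbb3, both higher in 4504s. For Tgfa it was 0.36, beside -4.28 between the group means and an SD of 0.96 over the KPF libraries. Egfr and Nrg1 differed more within this pair than between the group means, at 0.55 and 0.17. A single pair does not measure the spread between mice.

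For each member tested, the 3 genes with a mean of at least 10 CPM whose log2 CPM was most like it over the 9 libraries were looked up among 9171 genes, as a description in which all points share group, depth and marker content. Tgfa was most like Itga2, Osgin1 and Pdgfb (Pearson r = 0.98 each). Erbb3 was most like Aff1, AI661453 and the desmosomal cadherin Dsg2 (r = 0.97 to 0.98), and Erbb2 most like Calml4, Unc13b and the laminin gene Lamb2 (r = 0.98 to 0.99). Egfr was most like Slc35b4, Hyal2 and Xist (r = 0.89 to 0.92). Among the other ligands, the nearest genes were Bin1, Rpsa and Rgs16 for Ereg, Luc7l, Arhgef39 and Mrpl46 for Areg, Mmp23, Endod1 and Syt8 for Hbegf, Kcnn4, Mical2 and Fkbp8 for Btc, and Lrrc45, Mmp12 and Apeh for Nrg1. No member was among the 3 nearest genes of another.

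A promoter window of 300 bases from RefSeq (GRCm38.p6), 250 before the start and 50 after it, matched 6 of the 10 members: Egfr, Erbb2, Erbb4, Areg, Tgfa and Btc. Erbb3, Ereg, Hbegf and Nrg1 were not matched. The motif GGAATG, the core bound by Tead factors, was searched on both strands and was in the window of Erbb2, 88 bases before the start, and in 14.7% of 32851 promoters. The AP-1 motif, TGACTCA or TGAGTCA, was in 5.20% of promoters and in none of the 6 windows. No match says only that these letters are not in these windows.

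The other genes of the pathway were counted in the same fit. Of 5 other ErbB ligands, 2 were tested and none passed the adjusted threshold, 1 had an unadjusted p under 0.05 and DESeq2 called 1 lower. Over all genes, and for each list that follows, these shares were 16.1% at an unadjusted p under 0.05 in either direction and 6.75% called lower by DESeq2. Egf had a log2 fold change of -0.04, and Nrg4, a ligand of ErbB4, had -4.58 (standard error 2.00, adjusted p = 0.273 in edgeR's test), from 0 to 7.50 CPM in KPF and 0 to 0.327 CPM in KPYYF libraries. Epgn had 28 counts in all, none in KPF libraries and nearly all in KPYYF 4891, at 2.94 CPM, with a KPYYF mean of 1.02 CPM. Nrg2 had 40 counts and Nrg3 none.

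Of 9 genes for the release of ligands, all tested, none passed the adjusted threshold in either direction, and 3 were above and 6 below 0, with a median log2 fold change of -0.33. At an unadjusted p under 0.05 there was 1, and DESeq2 called 1 lower. They ran from Rhbdl2, a rhomboid protease, at -2.95 (standard error 1.48) to Adam17, the main protease that releases Tgfa, Areg and Hbegf, at 0.89 (standard error 0.46), with adjusted p of 0.355 and 0.369 in edgeR's test. Adam17 was at 24.8 to 116 CPM in KPF and 69.8 to 115 CPM in KPYYF libraries, so the groups overlapped. Rhbdl2 was at 0.612 to 13.8 CPM in KPF and 0 to 1.78 CPM in KPYYF libraries.

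Of 19 receptor adaptors and effectors, all tested, none passed the adjusted threshold, and 10 were above and 9 below 0 with a median of 0.05. An unadjusted p under 0.05 was found for 3 of them, and DESeq2 called 0. They ran from Crkl, an adaptor with 128 counts in all, at -2.20 (standard error 2.00) to Sos1, the exchange factor that loads Ras with GTP, at 0.90 (standard error 0.34), with adjusted p of 0.652 and 0.204 in edgeR's test. Sos1 was 19.0 to 26.8 CPM in KPF and 30.4 to 51.3 CPM in KPYYF libraries, without overlap. Vav2 and Pik3r2, named after their values were seen, were lower in KPYYF without overlap. Vav2 was at 56.3 to 127 CPM in KPF and 26.6 to 49.6 CPM in KPYYF libraries, and Pik3r2 at 43.3 to 108 and 38.9 to 41.8 CPM. Of all genes tested, 3.93% were higher and 5.16% lower without overlap.

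Of 20 genes that attenuate or sort the receptors, all tested, none passed, and 9 were above and 11 below 0 with a median of -0.02. There were 3 at an unadjusted p under 0.05, and DESeq2 called 1 lower. Cblc, a ubiquitin ligase of epithelial cells that acts on EGFR, was lowest, at -3.86 (standard error 0.91), with 8.05 to 32.5 CPM in KPF and 0.109 to 2.13 CPM in KPYYF libraries and an adjusted p of 0.0622 in edgeR's test. Socs5, a suppressor that promotes loss of EGFR, was highest, at 1.30 (standard error 0.43, adjusted p = 0.152), with 27.7 to 108 CPM in KPF and 96.9 to 186 CPM in KPYYF libraries.

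Of 13 genes known as outputs of ERK signalling, all tested, none passed, and 8 were above and 5 below 0 with a median of 0.21. Again 3 had an unadjusted p under 0.05, and DESeq2 called 1 lower. Spry2, a feedback inhibitor of receptor signalling, was highest at 1.19 (standard error 0.40, adjusted p = 0.165 in edgeR's test), with 11.3 to 40.3 CPM in KPF and 49.5 to 88.9 CPM in KPYYF libraries. Epha2, a receptor tyrosine kinase, was lowest at -2.03 (standard error 0.58, adjusted p = 0.115), with 27.9 to 106 CPM in KPF and 3.71 to 21.8 CPM in KPYYF libraries. By the rule of the study's methods, 3 of the 13 were past it, Spry2 in the higher and Epha2 and Epha4 in the lower direction, of which Epha4 was named after its value was seen. At that rule the higher share of all genes was 4.20% and the lower share 9.20%.

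**Figure D4:**
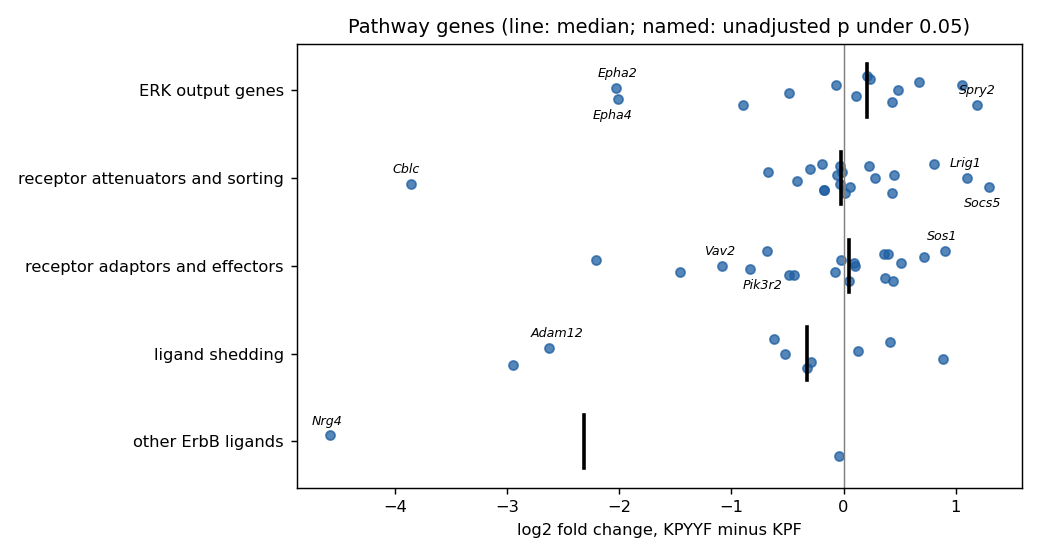
Log2 fold change of KPYYF minus KPF on the horizontal axis for each tested gene of 5 pathway lists, with a black line at the median of each list. Names are given to genes with an unadjusted p under 0.05. Medians of the 4 longer lists lie between -0.33 and 0.21, and none of the genes had an adjusted p under 0.05.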

How the data were processed

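RNA of FACS-sorted cells was sequenced as Lexogen QuantSeq 3' Fwd libraries, which read the 3' end of polyA RNA. The submitters' processing notes name STAR, HTSeq and mm10, without versions, and the annotation release and strand setting are not given in the sources used here. As deposited by the authors, values are raw counts per Ensembl gene, 1 file per library, without normalization. The methods text also describes BeadChip hybridization, a filter on a sum of 100 reads and DESeq2. The share of reads on genes was 38.5 to 42.0% in KPF and 37.3 to 38.2% in KPYYF libraries. Reads not uniquely aligned were 43.8 to 48.5% in KPF and 49.2 to 53.4% in KPYYF libraries. The groups did not overlap in either share, and the part of this in the levels was not tested. Reads on no gene, ambiguous or not uniquely aligned were left out of library sizes.

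Symbols and positions came from GENCODE M21, which matched 47224 of 47643 genes. Those whose counts over the 9 libraries summed to 100 or more were compared between KPYYF and KPF with edgeR 4.0.16 (R 4.3.3; TMM factors 0.833 to 1.08, robust quasi-likelihood test, no covariate, common biological coefficient of variation 0.826), with the Benjamini-Hochberg method over every tested gene and a threshold of 0.05. CPM used the TMM library sizes, log2 CPM a prior count of 2. Exact permutation tests, two-sided, counted the arrangements of 9 libraries into 6 and 3 with at least the observed absolute difference of mean log2 CPM. Tests were checked on simulated counts. A library was Xist-high at 1000 counts or more. The members and gene lists were chosen with earlier results of these data known, and no value of a list is independent support. Named genes were the members, genes with an adjusted p under 0.05 in a pathway list, the extremes of each list, the 3 genes most like each member, Yap1 and Xist. Alternatives were DESeq2 1.42.0, RLE and upper quartile factors, no filter, filterByExpr, limma 3.58.1 voom with quality weights, a prior count of 0.5, 4504h and 4504s summed, an Xist class term and each library left out. Figures were drawn with matplotlib 3.10.9. The EGF-like domain was read from GENCODE coding sequence, and receptor proteins were not analysed here. One further allele that both groups share is not reported here.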

Additional observations from a re-analysis of the deposited data

How the results depend on the processing

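The direction of Erbb2, Erbb3, Areg, Ereg, Hbegf and Tgfa was the same in all 19 alternatives of the fit on all genes. The exact tests of Erbb3 and Tgfa kept p under 0.05 in all 12 of theirs. The groups of both genes did not overlap, and these p, 0.0119 to 0.0357, were in each case the smallest that the arrangements allow. The alternatives share most of their libraries, so this adds no support. With DESeq2, 269 genes were higher and 928 lower, with 1 member higher (Ereg), 2 lower (Erbb3 and Tgfa), and 1 gene lower in each of the lists of other ErbB ligands, ligand shedding, attenuators and ERK output. Without a filter on low counts, 88 genes were higher, 219 lower and 1204 higher by the rule of the study's methods, 2 members (Erbb3 and Tgfa), 1 attenuator and 1 ERK output gene were lower, and the median of the other ligands was 0.38. With limma-voom, 44 genes and 0 members were lower, the attenuator median was 0.086 and Nrg1 had a log2 fold change of 0.34. With 4504h and 4504s summed, 25 genes were higher. With the Xist class term, 5 genes were higher and 46 lower, 0 members were lower, the attenuator median was 0.11, Egfr was at -0.23 and Nrg1 at 0.07. Chosen after seeing the data, the fit on Xist-high libraries gave 6 genes higher, 31 lower, 0 members lower, an attenuator median of 0.125, Egfr at -0.23 and Nrg1 at 0.085, and leaving out 4601 and 4504s together gave 11 higher, 56 lower and Nrg1 at 0.39. Leaving out each library in turn, genes higher ran from 6 (without KPF 4435) to 75 (without KPYYF 4449), genes lower from 13 (without KPYYF 4938) to 198 (without KPYYF 4449), members lower from 0 to 1, members higher by the study's rule from 0 (without KPYYF 4938) to 1, members lower by that rule from 2 (without KPYYF 4891 or 4938, losing Hbegf) to 4 (without KPYYF 4449, adding Erbb2) and adaptors lower from 0 to 1 (without KPYYF 4449). List medians ran from -6.04 (without KPYYF 4449) to -1.91 for other ligands, -0.19 to 0.11 for adaptors and -0.13 to 0.13 for attenuators. Log2 fold changes ran from -0.11 to 0.72 for Egfr, -0.79 to 0.38 for Btc and -0.84 to 0.58 for Nrg1, and differences of mean log2 CPM from -1.53 to 0.49 for Btc and -0.66 to 1.38 for Nrg1. The causes were not tested. With 3 KPYYF libraries no exact test could go below p = 0.0119. No paired analysis was possible because the mouse numbers in the labels differ between the groups, and replicates were numbered in accession order.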
